A study of Mus musculus with 11 samples.

Results

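The contractile genes of smooth muscle were followed as a set of 35 named genes in injured mouse arteries. They were chosen by symbol from the 48897 gene rows of the deposited count table, in which each of the 35 had 1 row, and all 35 passed the filter on low counts. The study compared Nrf3-/- knockout mice with flox mice as controls, and tissue was taken 7 days after arterial injury. There were 3 control and 3 knockout libraries of wire-injured femoral artery, and 3 control and 2 knockout libraries of ligated carotid artery. Nrf3 is a transcription factor encoded by Nfe2l3. No label gives the age or sex of the mice, the removed part of the gene, a Cre driver or an uninjured artery. Vessel and kind of injury differ together, so they cannot be told apart. The labels leave unsaid whether a library is 1 animal, and p-values here measure the spread between libraries, which may be technical.

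Differentiated smooth muscle contracts when calcium and calmodulin activate myosin light chain kinase, which phosphorylates the light chain of smooth muscle myosin so that it pulls on actin filaments. Serum response factor (SRF) drives many of the genes involved by binding CArG boxes, with myocardin and the myocardin-related factors as its coactivators. After arterial injury smooth muscle cells are known to lower this program while they migrate, divide and build a neointima.

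Library totals were 43698644 to 55998563 counts, and the 35 genes took 1.62 to 2.94% of them. Nfe2l3 had 37 to 85 counts in the 6 control libraries and 0 to 11 in the 5 knockout libraries, so its counts separated the genotypes as labelled. The smooth muscle markers Acta2 and Myh11 were high in every library, at 2863 to 6085 and 1132 to 2525 CPM (counts scaled to library size and composition). Each library is an artery wall with other cells. Summed CPM of 25 skeletal muscle genes ran from 32.4 to 7869, and of 12 macrophage genes from 2782 to 5683. In such bulk tissue fewer cells of a type and less RNA per cell cannot be told apart.

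The promoters of the set are shown first, because SRF is known to control many genes of this program through its boxes. RefSeq windows on GRCm38.p6, 250 bases before to 50 after the start, were found for 30 of the 35 genes and searched on both strands for the CArG box. Myocd, Rbpms, Tagln, Myh11 and Actg2 were not matched. A full box lay in the window of 4 of the 30 genes (13.3%), against 488 of all 27025 genes with a RefSeq window (1.81%). These 27025 were not limited to genes tested here. With 1 mismatch allowed the counts were 14 of 30 (46.7%) and 6419 of 27025 (23.8%). The 4 genes with a full box are printed, then Acta2 and Tpm1, which have sites with 1 mismatch, all in the direction of transcription. Capitals mark the full boxes in the first 4 genes, where sites with 1 mismatch are left in lower case, and the sites with 1 mismatch in Acta2 and Tpm1.
Srf (chr17:46556113-46556412, minus strand): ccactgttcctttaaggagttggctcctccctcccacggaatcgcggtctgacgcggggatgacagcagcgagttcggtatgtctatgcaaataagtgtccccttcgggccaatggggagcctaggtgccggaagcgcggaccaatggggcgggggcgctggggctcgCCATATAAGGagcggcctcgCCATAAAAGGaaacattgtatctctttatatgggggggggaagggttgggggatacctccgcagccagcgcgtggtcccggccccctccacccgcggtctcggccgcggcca
Vcl (chr14:20929148-20929447, plus strand): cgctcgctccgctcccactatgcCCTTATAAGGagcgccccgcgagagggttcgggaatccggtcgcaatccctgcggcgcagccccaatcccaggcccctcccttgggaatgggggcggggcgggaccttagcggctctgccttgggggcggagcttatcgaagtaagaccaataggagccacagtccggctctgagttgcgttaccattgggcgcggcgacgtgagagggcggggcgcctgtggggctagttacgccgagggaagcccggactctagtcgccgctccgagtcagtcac
Myl9 (chr2:156775214-156775513, plus strand): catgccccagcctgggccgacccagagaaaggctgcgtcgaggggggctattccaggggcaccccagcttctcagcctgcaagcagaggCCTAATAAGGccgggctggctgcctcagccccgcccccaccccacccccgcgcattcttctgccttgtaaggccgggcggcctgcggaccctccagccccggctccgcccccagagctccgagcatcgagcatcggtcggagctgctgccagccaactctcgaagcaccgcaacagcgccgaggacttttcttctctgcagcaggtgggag
Myl6 (chr10:128492960-128493259, minus strand): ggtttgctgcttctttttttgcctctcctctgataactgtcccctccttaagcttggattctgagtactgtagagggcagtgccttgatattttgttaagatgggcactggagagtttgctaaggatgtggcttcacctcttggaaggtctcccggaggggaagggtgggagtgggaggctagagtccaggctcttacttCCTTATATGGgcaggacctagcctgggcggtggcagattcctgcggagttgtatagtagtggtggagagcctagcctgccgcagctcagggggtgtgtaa
Acta2 (chr19:34255324-34255623, minus strand): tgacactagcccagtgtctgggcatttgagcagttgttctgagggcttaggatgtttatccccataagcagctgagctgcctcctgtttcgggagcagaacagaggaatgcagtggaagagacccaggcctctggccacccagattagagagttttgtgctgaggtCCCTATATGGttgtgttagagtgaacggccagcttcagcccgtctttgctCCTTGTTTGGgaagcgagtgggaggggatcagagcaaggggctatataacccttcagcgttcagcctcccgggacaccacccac
Tpm1 (chr9:67049164-67049463, minus strand): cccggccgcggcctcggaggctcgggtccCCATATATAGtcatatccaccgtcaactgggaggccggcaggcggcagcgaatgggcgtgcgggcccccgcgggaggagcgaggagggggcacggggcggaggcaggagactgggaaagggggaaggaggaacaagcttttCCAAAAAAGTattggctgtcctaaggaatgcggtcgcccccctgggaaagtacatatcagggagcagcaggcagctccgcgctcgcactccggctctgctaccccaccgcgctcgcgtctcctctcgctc
Srf, which encodes the factor itself, held 2 full boxes, whose first bases lay at −82 and −62 from the start. The box began at −227 in Vcl, −161 in Myl9 and −50 in Myl6. A match is a description of the sequence, and binding was not measured.

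Levels per length spanned a wide range within the set. As means over the 11 libraries, Tagln stood at 1855 CPM per kilobase, Acta2 at 1686, Myl6 at 1366 and Myl9 at 896. Tagln encodes transgelin, an actin-binding protein, Acta2 smooth muscle actin, and Myl6 and Myl9 myosin light chains. Myh11, the smooth muscle myosin heavy chain, was seventh in the order at 284 CPM per kilobase. Lowest were Prkg1, the cyclic GMP-dependent protein kinase, at 3.30 and Casq2, a calcium store protein also of muscle fibres, at 1.24 CPM per kilobase. Reads of the near-identical actins Acta2 and Actg2 may be split between the genes. Tagln overlaps Pcsk7 on the opposite strand, whose counts came to 91.3% of those of Tagln, and Prkg1 overlaps Cstf2t, at 161%. No source used here gives the strand setting of the counting, so reads of such pairs may be exchanged.

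The libraries of 1 group differed across most of the set at once. Mean log2 CPM of the 35 genes was 8.14, 8.0 and 8.08 in femoral control libraries, and 7.54, 7.79 and 8.17 in femoral knockout libraries. It was 7.38, 7.88 and 7.82 in carotid control libraries, against 7.41 and 7.89 for the knockouts. The control and knockout ranges overlapped in both vessels, and the femoral controls lay closest together. Femoral knockout replicate 1 was lowest of its group for 28 of the 35 genes and replicate 3 highest for 32, and carotid control replicate 1 was lowest for 31. As a share of counts the set took 2.69 ± 0.230% (SD, n = 3) in femoral controls and 2.32 ± 0.526% (n = 3) in femoral knockouts. It took 2.17 ± 0.428% (n = 3) in carotid controls and 1.97 ± 0.490% (n = 2) in carotid knockouts.

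**Figure D1:**
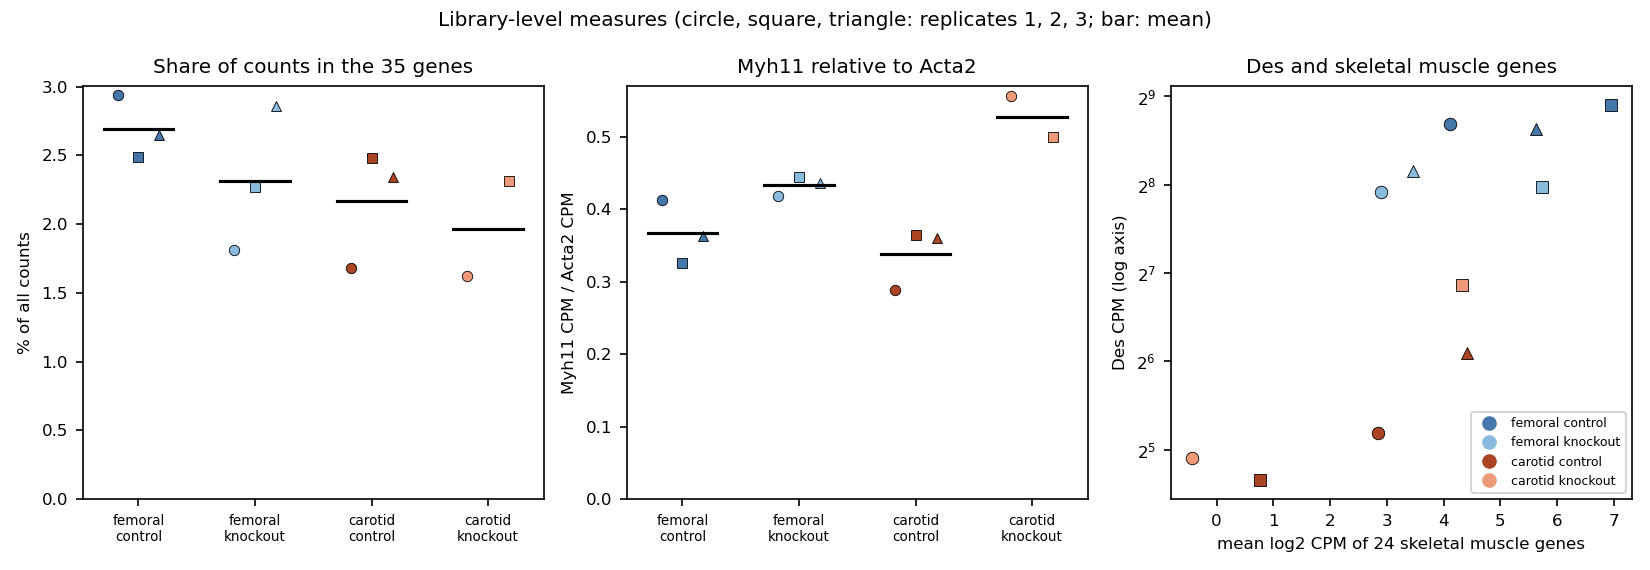
Left, percent of all counts in the 35 contractile genes; middle, Myh11 CPM divided by Acta2 CPM; right, Des CPM (log axis) against the mean log2 CPM of 24 skeletal muscle genes, each point 1 library and each bar a group mean. The share of counts overlaps between control and knockout in both vessels, the Myh11 to Acta2 ratio does not, and the femoral libraries have higher Des than the carotid libraries. The part of skeletal muscle fibres in Des was not tested.

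The knockout comparisons address whether Nrf3 loss changes the contractile program in the injured wall, and none of the 35 genes passed edgeR's quasi-likelihood test in either vessel. In the femoral artery 32 of the 35 log2 changes were negative, with a median of −0.23. Over all 21343 genes tested, 53.0% of changes were negative, the median was −0.02, and 2.51% were called at a Benjamini-Hochberg adjusted p under 0.05. Of the 35, 2 had an unadjusted p under 0.05 (Mkl1 and Tpm1), against 19.5% of all genes, and DESeq2 called 0. The 95% intervals of the log2 changes extended a median of 0.49 to either side, and 33 of 35 included 0. The median lay between −0.43 and −0.10 when each library was left out in turn.

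Among the filament genes, all 8 femoral changes were negative, from −0.73 to −0.14. Acta2 (chr19:34240336-34255585, GRCm38) had 6085, 5203 and 5638 CPM in femoral controls, against 3140.3, 4161 and 5775 in knockouts. Its log2 change of −0.37 ± 0.24 (SE; 95% interval −0.90 to 0.16) did not pass (adjusted p 0.434, edgeR), and 1 knockout library lay within the control range. Myh11 (chr16:14194527-14291408) had 2515, 1699 and 2046 CPM in femoral controls, against 1314, 1852 and 2525 in knockouts. The Myh11 ranges overlapped fully, and its log2 change was −0.14 ± 0.28 (adjusted p 0.845, edgeR).

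Tpm1, an alpha-tropomyosin that lies along actin filaments, and Des, the intermediate filament protein desmin, were the 2 genes with every femoral knockout library below every control library, as were 12.1% of all genes tested. Tpm1 had 1211, 1461 and 1241 CPM in control libraries, against 700, 951 and 1141 in knockout libraries, a log2 change of −0.49 ± 0.20 (adjusted p 0.209, edgeR). Des had 413, 480 and 395 CPM in control libraries, against 242, 251 and 286 in knockout libraries, a log2 change of −0.73 ± 0.43 (adjusted p 0.396, edgeR). When only the femoral libraries were fitted, Des passed, at −0.73 with an adjusted p of 0.0366. Both genes are also expressed in skeletal muscle fibres. Of 24 skeletal muscle genes tested, 21 had a negative femoral change, with a median of −1.94, and the part of these fibres in the values of Des and Tpm1 was not tested.

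The regulators were the group whose femoral changes differed in sign. Mkl1 and Mkl2 encode the myocardin-related factors, coactivators of SRF that enter the nucleus as actin filaments form. Mkl1 had 34.3, 34.9 and 35.6 CPM in femoral controls, against 53.3, 41.7 and 39.0 in knockouts, a log2 change of 0.35 ± 0.12 (adjusted p 0.147, edgeR). Mkl2 had 51.7, 46.3 and 54.1 CPM in control libraries, against 61.5, 54.7 and 58.7 in knockout libraries (0.20 ± 0.13, adjusted p 0.428, edgeR). These were the 2 genes with every femoral knockout library above every control, as were 13.3% of all genes. Mkl1 overlaps Sgsm3 on the opposite strand, whose counts came to 33.6% of its own and whose femoral log2 change was −0.32.

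**Figure D2:**
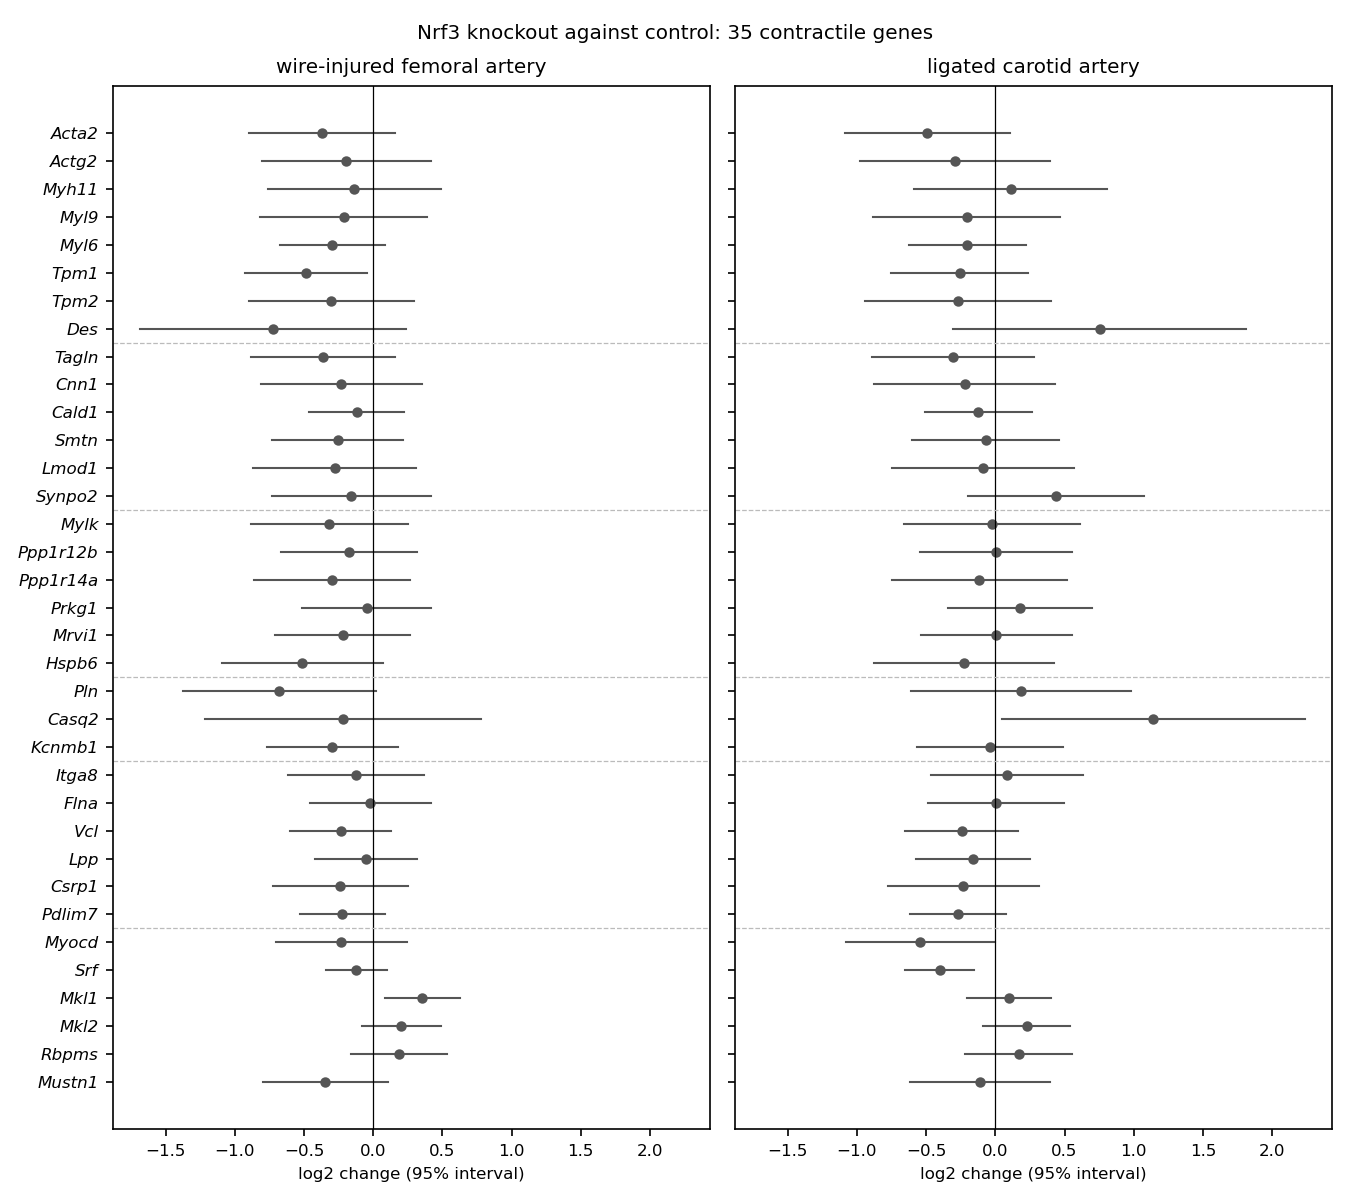
Log2 change (points) with its 95% interval (lines) of the 35 contractile genes in knockout against control libraries of the femoral (left) and carotid artery (right), grouped from the top as filament, actin-binding, myosin phosphorylation, calcium and membrane, adhesion, and regulator genes. No gene passed the threshold, and 33 femoral and 32 carotid intervals include 0.

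The remaining groups had femoral changes in 1 direction. All 6 actin-binding genes (such as Cnn1, calponin, and Smtn, smoothelin) were negative, with a median of −0.24. So were the 6 genes of myosin phosphorylation and relaxation (such as Mylk, the light chain kinase, and Ppp1r12b, a subunit of myosin phosphatase), at a median of −0.26. The 6 adhesion genes had a median of −0.17. Pln, phospholamban, an inhibitor of the calcium pump of the internal store, had the second largest negative change of the 35 at −0.68 ± 0.32 (adjusted p 0.271, edgeR). Hspb6, a small heat shock protein of relaxation, followed at −0.51 ± 0.26 (adjusted p 0.316), and neither gene passed.

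In the carotid artery 22 of the 35 log2 changes were negative and 13 positive, with a median of −0.11, against 49.5% negative and a median of 0.00 over all genes. None passed in edgeR's quasi-likelihood test, where 0.923% of all genes were called, and 3 had an unadjusted p under 0.05 (Srf, Casq2 and Myocd), against 14.5%. The median was −0.34 without carotid knockout replicate 2, 0.10 without carotid knockout replicate 1 and 0.03 without carotid control replicate 2, so its sign depended on single libraries.

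Srf (chr17:46546838-46557214) and Myocd, the genes of the central factor and of its smooth muscle coactivator myocardin, were the 2 with every carotid knockout library below every control, as were 15.0% of all genes. Srf had 93.6, 109 and 114 CPM in carotid controls, against 77.1 and 82.8 in knockouts. Its log2 change of −0.40 ± 0.11 had an adjusted p of 0.131 with edgeR and of 0.0296 with DESeq2, so the call rests on the tool. In the femoral artery Srf had 108, 92.2 and 96.1 CPM in controls and 88.2, 87.4 and 96.5 in knockouts, with overlap (−0.12 ± 0.10).

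Myocd had 46.3, 58.7 and 67.1 CPM in carotid controls, against 33.2 and 45.7 in knockouts, a log2 change of −0.54 ± 0.24 (adjusted p 0.343, edgeR). Acta2 had 3915, 6037 and 5355 CPM in carotid controls, against 2863 and 4393 in knockouts, with overlap, and a log2 change of −0.49 ± 0.27 (adjusted p 0.450, edgeR). Myh11 had 1132, 2200 and 1933 CPM in carotid controls, against 1595 and 2194 in knockouts, also with overlap (0.11 ± 0.32, adjusted p 0.921, edgeR).

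Taking the mean of both vessels' knockout effects, 0 of the 35 genes passed in edgeR's quasi-likelihood test, against 6.31% of all genes. An unadjusted p under 0.05 was reached by 7 (Srf, Tpm1, Mkl1, Acta2, Myocd, Pdlim7 and Mkl2), against 22.8%. Srf came nearest, at −0.26 ± 0.08 (adjusted p 0.0677), and passed in DESeq2 (−0.26, adjusted p 0.0206) and without carotid control replicate 1 (−0.30, adjusted p 0.0339). Myocd passed without femoral knockout replicate 3 (−0.52, adjusted p 0.0453), against −0.39 with all libraries. In both vessels 22 genes had a negative and 3 (Mkl1, Mkl2 and Rbpms) a positive change, against 32.2% and 29.7% of all genes. No gene of the set differed between the vessels in its knockout effect by edgeR's interaction test (0.00469% of all genes were called), where 1 had an unadjusted p under 0.05, against 8.50% (Des, 1.48 ± 0.65, adjusted p 0.581) and DESeq2 called 0.

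Markers of other cells moved with the genotype beside these values. All 10 genes of a T and NK cell list were higher in the knockouts by the mean effect in edgeR's quasi-likelihood test, against 6.31% of all genes called. Their median log2 change was 2.00. Their summed CPM was 5.81 to 29.4 in control and 53.0 to 67.8 in knockout libraries. Of 12 macrophage genes 2, Itgam and Csf1r, were higher in the femoral knockouts, against 2.51% of all genes called. Cd34 and Mfap5, 2 of 9 genes of adventitial fibroblasts, and Higd1b, 1 of 6 of pericytes, were lower there. Summed CPM of the fibroblast genes was 3648 to 4061 in femoral control and 3014 to 3296 in femoral knockout libraries, with no overlap, and 3335 to 4355 against 3648 to 4890 in the carotid artery. Lum alone averaged 1555 CPM in femoral controls and 1200 in femoral knockouts. Among single genes, 12.1% of all were lower in every femoral knockout than in every femoral control. No such share is given for a sum of genes. The part of these cells in the knockout changes of the contractile genes was not tested.

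The balance between 2 filament genes did separate the genotypes. The ratio of Myh11 to Acta2 CPM was 0.413, 0.327 and 0.363 in femoral controls, against 0.418, 0.445 and 0.437 in knockouts. In the carotid artery it was 0.289, 0.364 and 0.361 in controls, against 0.557 and 0.499 in knockouts. Each knockout library lay above each control library of its vessel, though the nearest femoral pair stood at 0.418 and 0.413. The ratio does not depend on library scaling. It was chosen after its values were seen, so it is a description with no test, and 31 of the 595 possible pairs of the 35 genes (5.21%) separated in 1 direction in both vessels, 9 of them with Acta2.

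Among the 35 genes the control groups of the 2 vessels differed more than the genotypes did in number of calls. Over all genes, 6.21% were called between the control vessels, against 2.51% in the femoral and 0.923% in the carotid knockout comparison. The mean knockout effect, which draws on all 11 libraries, called 6.31%. The control libraries also serve the knockout comparisons. Between carotid and femoral controls, edgeR's quasi-likelihood test called 6 of the 35 genes, 5 lower and 1 higher in the carotid artery, against 6.21% of all genes (3.22% lower and 2.99% higher). Des, Pln, Tpm1, Mustn1 and Cald1 were lower and Itga8 was higher. The median log2 change was −0.34, against 0.00 over all genes. Every carotid control library lay below every femoral control for 13 genes and above for 3, against 13.6% and 11.7% of all genes.

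Des (chr1:75360292-75368579) had the largest change of the 35. It had 413, 480 and 395 CPM in femoral controls, against 36.4, 25.1 and 68.2 in carotid controls, with a wide gap between the groups. The level was 9.92-fold lower in the carotid controls, a log2 change of −3.31 ± 0.47 (adjusted p 0.00234, edgeR). Des passed under all 18 alternatives run, with log2 changes from −3.80 to −2.61.

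Pln (chr10:53337686-53345999) had 25.5, 19.9 and 17.5 CPM in femoral controls, against 3.01, 6.39 and 6.21 in carotid controls. It was 4.02-fold lower (−2.01 ± 0.33, adjusted p 0.00508, edgeR) and passed under all 18 alternatives. On the opposite strand lie Cep85l, at 40.2% of the Pln counts, which had a log2 change of 0.32 ± 0.24, and an intronic transcript at 59.6%, which had one of −1.96 ± 0.30. Reads of the intronic transcript and of Pln may be exchanged.

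Itga8 (chr2:12106632-12301920) encodes the alpha 8 integrin, an adhesion receptor of smooth muscle. It had 375, 284 and 411 CPM in femoral controls, against 699.7, 996 and 759 in carotid controls, and every carotid library lay above every femoral library. It was 2.30-fold higher (1.20 ± 0.23, adjusted p 0.0104, edgeR), and passed under 17 of 18 alternatives. The exception was a covariate for the skeletal muscle genes (1.21, adjusted p 0.0542).

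**Figure D3:**
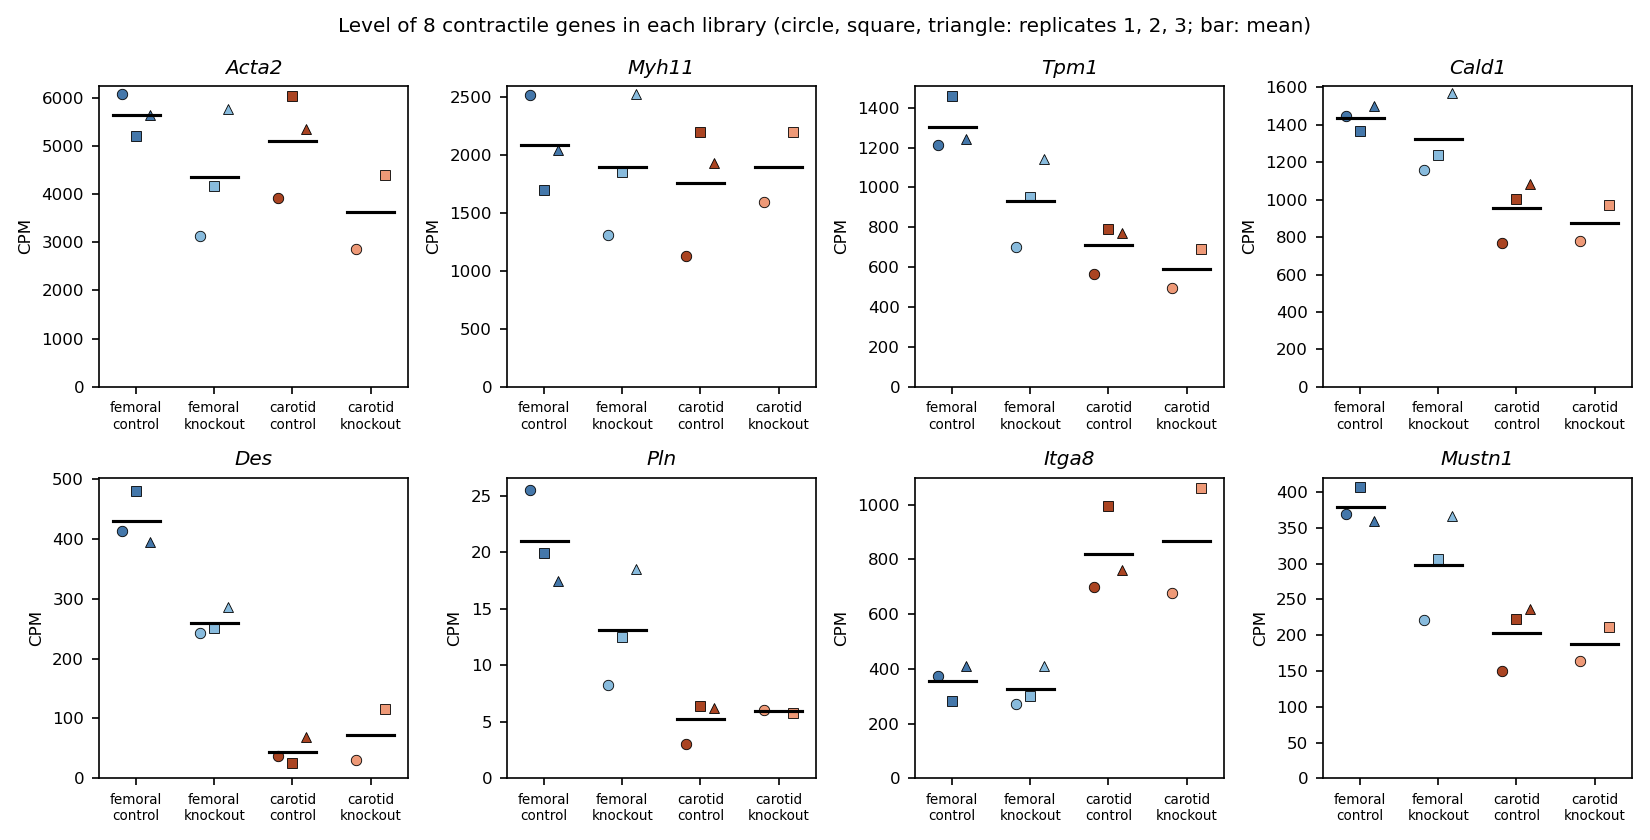
CPM of 8 contractile genes in each of the 11 libraries by group, with the group mean as a bar. Des is at 395 to 480 CPM in the femoral controls and 25.1 to 68.2 in the carotid controls, Itga8 lies higher in all carotid libraries than in all femoral libraries, and Acta2 and Myh11 overlap between the vessels.

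Tpm1, Mustn1 and Cald1 were called with a weaker hold. Tpm1 had 566, 792 and 771 CPM in the carotid controls (−0.88 ± 0.20, adjusted p 0.0272, edgeR). Mustn1, which encodes a small nuclear protein of the musculoskeletal system, had 370.1, 408 and 359.7 CPM in the femoral and 150.2, 223 and 236 in the carotid controls (−0.90 ± 0.21, adjusted p 0.0278). Cald1, caldesmon, which binds actin and myosin, had 1448, 1365 and 1501 CPM in the femoral and 770.4, 1002 and 1086 in the carotid controls (−0.59 ± 0.16, adjusted p 0.0499). No library of one control group reached the other for any of these 3 genes. Of 18 alternatives Tpm1 passed in 10, Mustn1 in 11 and Cald1 in 4, and leaving out any 1 femoral control ended all 3 calls. Tpm1 was also lost without any 1 carotid control, Mustn1 without carotid control replicate 1 or 2, and Cald1 without each other single library except femoral knockout replicate 3.

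Markers of other cells differed between the control vessels beside these calls. Of 24 skeletal muscle genes 1, Eno3, was called, against 6.21% of all genes. The mean log2 CPM of the 24 was 4.11, 6.95 and 5.63 in femoral controls, against 2.84, 0.77 and 4.40 in carotid controls, and 21 of the 24 changes were negative. Of the 35 contractile genes, 7 are also known in skeletal muscle, and 4 of these were called (Des, Pln, Tpm1 and Mustn1). Carotid control replicate 3 had the highest skeletal level of its group, 4.40, and femoral control replicate 1 the lowest of its own, 4.11. Des stood at 68.2 and 413 CPM in them and Pln at 6.21 and 25.5. Within the carotid artery, Des was highest in control replicate 3 and knockout replicate 2 (116 CPM), whose skeletal levels were 4.40 and 4.32. The other carotid libraries had 25.1 to 36.4 CPM of Des at skeletal levels of −0.44 to 2.84. Pln had 6.21 and 5.79 CPM in the former libraries and 3.01 to 6.39 in the others. With the mean skeletal level as a covariate Des (−2.61, adjusted p 0.00216, edgeR) and Pln (−2.09, adjusted p 0.0228) passed, and Tpm1, Mustn1 and Cald1 did not (adjusted p 0.177 to 0.242). The skeletal level differed with the vessel, so this fit cannot separate the fibres from the vessel. The part of the fibres in the values of these genes was not tested.

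Other lists also held genes called between the control vessels, where 6.21% of all genes were called, so a single call in a short list is near that share. Among single genes, 13.6% of all lay lower and 11.7% higher in every carotid control than in every femoral control. For sums of genes no such share is given. Pericyte markers went both ways, with Kcnj8 and Abcc9 higher and Higd1b and Notch3 lower in the carotid artery, of 6 genes. Their summed CPM overlapped, at 779 to 1167 in femoral and 741 to 901 in carotid controls. Of 6 Schwann cell and nerve genes Mbp and Pmp2 were higher, with sums of 49.1 to 62.1 CPM in femoral and 93.1 to 1097 in carotid controls, and no overlap. Of 12 endothelial genes Nos3 and Sox18 were lower, with sums of 2131 to 2518 CPM in femoral and 1444 to 2116 in carotid controls, and no overlap. Of 6 adipocyte genes Ucp1 was higher, while the sums were 821 to 1595 CPM in femoral and 180.0 to 694 in carotid controls. Of the 9 fibroblast genes Pi16 was higher and Lum lower, of 12 macrophage genes Itgam was higher, and of 5 heart muscle genes tested Nppb was lower. The part of these cells in the values of the contractile genes was not tested.

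Acta2 and Myh11 gave no call between the controls, at −0.15 ± 0.24 (adjusted p 0.795, edgeR) and −0.25 ± 0.28 (adjusted p 0.681). Nor did Myocd, at −0.01 ± 0.21 (95% interval −0.48 to 0.47). Scaling the libraries to equal means of the 35 genes, an alternative chosen after the data were seen, moved the median of all genes to 0.40, and 4 of the 35 (Des, Pln, Itga8 and Rbpms) passed on that scale, against 5.43% of all genes.

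In the knockout arteries the same vessel comparison called 1 of the 35 genes, against 4.91% of all genes. Itga8 had 270.2, 301 and 411 CPM in femoral knockouts, against 677 and 1060 in carotid knockouts, with no overlap (1.41 ± 0.25, adjusted p 0.00922, edgeR). Without carotid knockout replicate 2 its value was 1.04 (adjusted p 0.0779). Des had 30.0 and 116 CPM in the carotid knockouts, an uneven pair, and a change of −1.83 ± 0.52 (adjusted p 0.0740, edgeR). The mean log2 CPM of the skeletal muscle genes was −0.44 and 4.32 in these carotid knockouts. Pln had 6.06 and 5.79 CPM there (−1.14 ± 0.37, adjusted p 0.114, edgeR). Whether a gene of the set differed in this vessel effect between genotypes is the interaction given above, which called none.

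**Figure D4:**
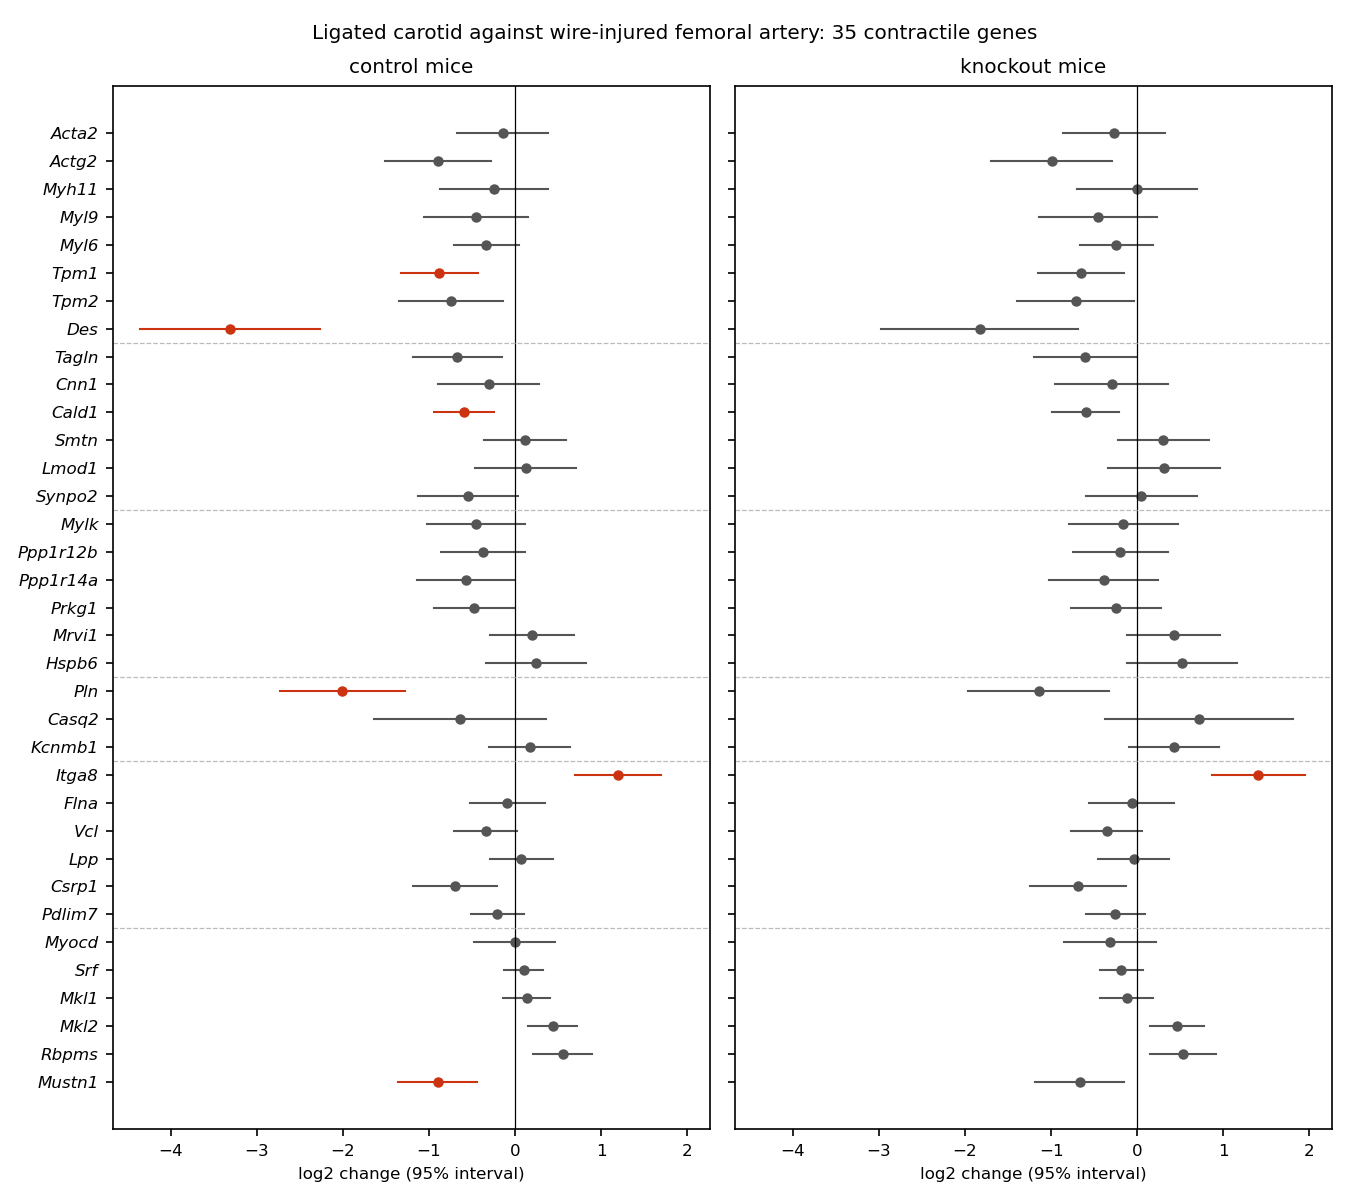
Log2 change (points) with its 95% interval (lines) of the 35 contractile genes in carotid against femoral libraries of control (left) and knockout mice (right), in the same groups and order as for the genotypes, with called genes in red. Des, Pln, Tpm1, Mustn1 and Cald1 are lower and Itga8 higher in carotid controls, and Itga8 is higher in carotid knockouts.

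A wider list of 60 contractile pathway genes outside the set was read beside it. By the mean knockout effect 2 of the 60 were lower and 0 higher in edgeR's quasi-likelihood test, against 6.31% of all genes called. The median was −0.16 against −0.02 over all genes. DESeq2 called 9 of the 60. Every share of all genes called in this report is edgeR's. None is given for DESeq2, so its counts cannot be set against a background. Fhl2, a LIM protein that binds SRF, had a mean effect of −0.54 ± 0.09 (adjusted p 0.00699), which passed in 16 of 17 alternatives and not when scaled to the 35 genes (−0.39, adjusted p 0.356). In the carotid artery it went from 21.6 ± 0.558 CPM (SD, n = 3) to 13.3 ± 2.05 (n = 2), the 1 call of the list there, against 0.923% of all genes and 3 calls in DESeq2 (−0.70 ± 0.13, adjusted p 0.0362), kept in 7 of 18 alternatives. Lmcd1, a LIM and cysteine-rich domain protein, had a mean effect of −0.69 ± 0.15 (adjusted p 0.0303, 8 of 17 alternatives). The carotid call of Fhl2 ended without any 1 library except femoral control replicate 3 or femoral knockout replicate 2 or 3. Of the single libraries left out, the mean-effect call of Lmcd1 held only without femoral control replicate 2, femoral knockout replicate 3, carotid control replicate 1 or carotid knockout replicate 2. The femoral comparison called 0 of the 60 with edgeR's quasi-likelihood test, where 12 had an unadjusted p under 0.05 (19.5% of all genes did), and 3 with DESeq2.

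Between the control vessels 5 of the 60 were higher and 4 lower in the carotid artery, against 2.99% and 3.22% of all genes, and DESeq2 called 15. Named by smallest p, Lmcd1 (1.87 ± 0.21), Gata6, a transcription factor (1.02 ± 0.14), Fhl1, a LIM protein (1.02 ± 0.17), and Adra1d, an adrenergic receptor (1.83 ± 0.33), were higher. Lower were Fhl2 (−1.18 ± 0.11), Sorbs2, a cytoskeletal adaptor (−2.70 ± 0.29), Kcnma1, the pore of the channel that the member Kcnmb1 regulates (−0.99 ± 0.20), and Calm2, calmodulin (−0.57 ± 0.13), all on the log2 scale with edgeR adjusted p of 0.000275 to 0.0265. With the skeletal muscle covariate Adra1d, Kcnma1 and Calm2 did not pass (adjusted p 0.0651 to 0.150). Nor did Kcnma1 without femoral control replicate 1 or 3, or Calm2 without femoral control replicate 1 or 2 or carotid control replicate 1 or 3. Scaled to the 35 genes, Fhl2, Kcnma1 and Calm2 did not pass. Of 19 genes of modulated smooth muscle, 0 were called by edgeR in either knockout comparison, and DESeq2 called 1 (femoral) and 3 (carotid). An unadjusted p under 0.05 in edgeR was reached by 6 (femoral) and 5 (carotid), against 19.5% and 14.5% of all genes. By the mean effect edgeR called 0 of the 19 and DESeq2 called 5. There 10 had an unadjusted p under 0.05 in edgeR, against 22.8% of all genes. In carotid controls 2 of the 19 were higher and 3 lower, against 6.21% of all genes called, and DESeq2 called 9. Myh10, a non-muscle myosin heavy chain, went from 150.2 ± 34.2 CPM in femoral to 351 ± 24.6 in carotid controls (n = 3 each). Vcam1 was the other higher gene, at a log2 change of 0.70 ± 0.18. Col8a1 (−1.87 ± 0.25), Dcn (−0.77 ± 0.15) and Lum (−0.61 ± 0.12) were lower, so the list went both ways. Lum is also in the fibroblast list.

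The 35 genes varied together over the 11 libraries to different degrees. Pearson's r of log2 CPM with the mean of the other members was highest for Ppp1r14a, an inhibitor of myosin phosphatase (0.98), Mylk (0.96), Ppp1r12b (0.96) and Cnn1 (0.96). It was negative for Mkl1 (−0.72), Mkl2 (−0.51), Itga8 (−0.28) and Rbpms, an RNA-binding protein (−0.14). Of 12064 other genes of at least 5 CPM on average, Myo1h (0.96), Tmem246 (0.96) and Rbpms2 (0.95) were most like the mean of the set, and Pcsk7, which overlaps Tagln, was among the 10 closest (0.92). The libraries share vessel, genotype and composition, so these values are descriptions with no test.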

How the data were processed

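Polyadenylated RNA of 11 arterial samples was sequenced as paired reads, per the labels. The authors deposited raw gene counts, whole numbers for 48897 genes with no value normalized, and the submitters' processing notes name HISAT2, HTSeq, edgeR, DESeq and DESeq2 with no version and no role. The same notes name mm9, but of 39064 genes joined by NCBI gene ID 99.8% overlapped the GRCm38.p6 RefSeq position, so positions are given as GRCm38. The strand setting of the counting is not given in the sources used here. The carotid knockout titled replicate 2 has a column numbered 3.

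All 11 libraries entered 1 edgeR 4.0.16 quasi-likelihood fit (R 4.3.3, limma 3.58.1) with a mean per group, TMM scaling (factors 0.963 to 1.03) and filterByExpr, which kept 21343 genes (43.6%). There were 7 residual degrees of freedom and 3.63 prior ones, and a common biological coefficient of variation of 25.6%. Two-sided p-values were adjusted after Benjamini and Hochberg over the 21343 genes, with a threshold of 0.05. Errors are SD for means and SE for log2 changes, derived as the absolute change divided by the square root of F, and 95% intervals use the t quantile. Log2 CPM for means and correlations had a prior count of 2. DESeq2 1.42.0 was an alternative, beside other scaling, no filter, single-comparison fits, a skeletal muscle covariate, a replicate block and leaving out each library. Tables and figures used Python 3.11.15, pandas 2.3.3 and matplotlib 3.10.9. The fit was tested on simulated data.

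Replicate numbers were checked by correlating deviations from group means over genes. Same-numbered femoral libraries gave r of 0.172, 0.18 and 0.115 (other pairs −0.184 to 0.0114). These r are small and no label gives a pairing, so they cannot decide whether the femoral libraries are paired. The main fit took no libraries as paired. Carotid libraries with the same title number gave −0.118 and −0.15, and the second knockout gave 0.025 with control 3, its partner by column number, so the carotid libraries are not taken as paired. Across the vessels the same title numbers gave 0.108, −0.0428 and 0.14 in controls and 0.131 and 0.104 in knockouts.

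Named genes were the called members, otherwise up to 6 of smallest p per comparison, Acta2 and Myh11 always, up to 4 called genes per other list and direction, and the 10 genes most like the set. Some further members were named after their values were seen. The members, the lists and these rules were chosen with earlier results of these data known.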

Additional observations from a re-analysis of the deposited data

How the results depend on the processing

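No result changed sign while called. Of the 35 genes, the femoral knockout comparison called 1 (Des) when only the femoral libraries were fitted, the carotid one 1 (Srf) in DESeq2, and the mean of both 1 (Srf) in DESeq2, in place of 0. Leaving out each library gave 0 to 0 calls in the femoral, carotid and interaction comparisons, 0 to 1 for the mean, 3 to 6 between the control vessels (main value 6) and 1 to 2 between the knockout vessels (main value 1). Between the control vessels DESeq2 called 11, no filter on low counts 9, a replicate block shared across the vessels 9 and the skeletal muscle covariate 2. The share of all genes called by DESeq2 is not given here. Between the knockout vessels DESeq2 called 7, no filter on low counts 3, the covariate 2, scaling to the 35 genes 2 and the shared block 3. The scaling to the 35 genes and the shared block were chosen after the data were seen. The replicate block within each vessel called 0 of the 35 genes in each of the 4 knockout comparisons and changed no call of these genes, and ended the carotid call of Fhl2 (−0.69, adjusted p 0.080). Leaving out 1 carotid knockout leaves 1 library, which the fit takes to vary like the other groups. The femoral 95% intervals extended a median of 0.49 to either side on the log2 scale, before adjustment for the number of genes tested. Calls on an adjusted p need more, and femoral changes of −0.73 (Des) and −0.68 (Pln) were not called in the main fit. Changes of such size in a single gene can thus be missed with 3 libraries a group.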
